A study of Sus scrofa with 2 samples.

Results

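The 9 genes described here encode proteins that carry out or control the release of synaptic vesicles: STXBP5L, CADPS, SV2A, SV2B, SV2C, SYT1, SNAP25, RIMS1 and RIMS2. They were chosen by name, with earlier results of these data known. All 9 were found among the 25880 genes listed in the count tables, 8 of them under their symbol. RIMS2 was found under the identifier ENSSSCG00000031957, which a table of gene names pairs with that symbol. Single nuclei were sequenced from the frozen olfactory neuroepithelium of newborn piglets (Sus scrofa), with 1 library labelled as a wild type piglet and 1 as a CFTR knockout piglet. CFTR forms an anion channel that is defective in cystic fibrosis. The labels do not say whether a library pools animals. The study asks how the olfactory system is altered by the loss of CFTR. Each genotype is a single library, so no difference could be tested, and every interval below covers counting error only.

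Olfactory sensory neurons send an axon to the olfactory bulb, where they release glutamate. At a nerve terminal, vesicles are filled, docked at the active zone, primed, and fused with the membrane when calcium enters. SNARE proteins drive the fusion, and the genes below encode a SNARE, its calcium sensor, a priming factor, an inhibitor, scaffold proteins of the active zone and glycoproteins of the vesicle membrane. Mature neurons of the nose also build cilia and express the odour transduction channel, while immature neurons extend their axon.

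After filtering, 4536 wild type and 5761 knockout nuclei were kept, with a median of 2966 and 2093 unique molecular identifiers (UMIs, 1 per captured transcript) each. CFTR was at 88.9 UMIs per 1000000 (CPM) in the wild type and 12.7 in the knockout library. Mitochondrial transcripts were 2.83% of wild type UMIs and 1.31% of knockout UMIs, and 5 barcodes occurred in both libraries. Nuclei were clustered without the 9 genes and without the wider list of release genes described below, and clusters were named from marker genes with the ending "-like". The 13 measured markers of mature olfactory neurons, among them the channel subunits CNGA2 and CNGA4 and the G protein subunit GNAL, served in the naming. All 13 had UMIs in mature neuron-like nuclei of both libraries, and also in immature neuron-, sustentacular- and fibroblast-like nuclei. Their summed level in immature neuron-like nuclei was 28.9% of the mature level in the wild type and 33.4% in the knockout library.

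Mature neuron-like nuclei formed clusters 8 and 5, immature neuron-like nuclei clusters 0 and 3. Of the mature class, cluster 8 held 799 of 919 wild type and 112 of 898 knockout nuclei, and cluster 5 held 120 and 786. The 2 mature clusters differ in genes of nasal zones: the log2 ratio of cluster 5 over cluster 8 was 3.12 in the wild type and 3.02 in the knockout library for NQO1, a gene of dorsal neurons, and -1.82 and -1.41 for NCAM2, an adhesion gene of ventral neurons; both genes were picked after their values were seen. So a difference between the libraries over mature nuclei is also a difference between clusters 8 and 5, and the values within each cluster are given after those of the class. Cluster 17, with the proliferation and neuronal commitment genes TOP2A, EZH2, NEUROD1 and HES6, did not pass the check of its leading genes and is kept by number; no order of stages was computed among these clusters. It held 185 wild type and 118 knockout nuclei.

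The 9 release genes were mostly neuronal. In both libraries, 7 of the 9 had their highest level among the named classes in mature or immature neuron-like nuclei. This held for 8.01% of the 14511 genes with enough UMIs (20 or more in each library). The exceptions were SV2B and, in the wild type library, SV2C, which was highest in fibroblast-like nuclei by a small margin. Because the 9 genes were chosen with earlier results of these data known, this count and those below are descriptions and not tests. When each nucleus was thinned to 1000 UMIs, so that depth was equal, 73.0% of the wild type (95% interval 70.0% to 75.9%, n = 889 nuclei) and 78.9% of the knockout mature neuron-like nuclei (76.1% to 81.6%, n = 864) held UMIs of at least 3 of the 9 genes. In immature neuron-like nuclei these shares were 30.9% and 34.2%, in cluster 17 they were 3.85% and 5.17%, and in sustentacular-like nuclei, the support cells of the epithelium, 1.24% and 0.90%.

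**Figure D1:**
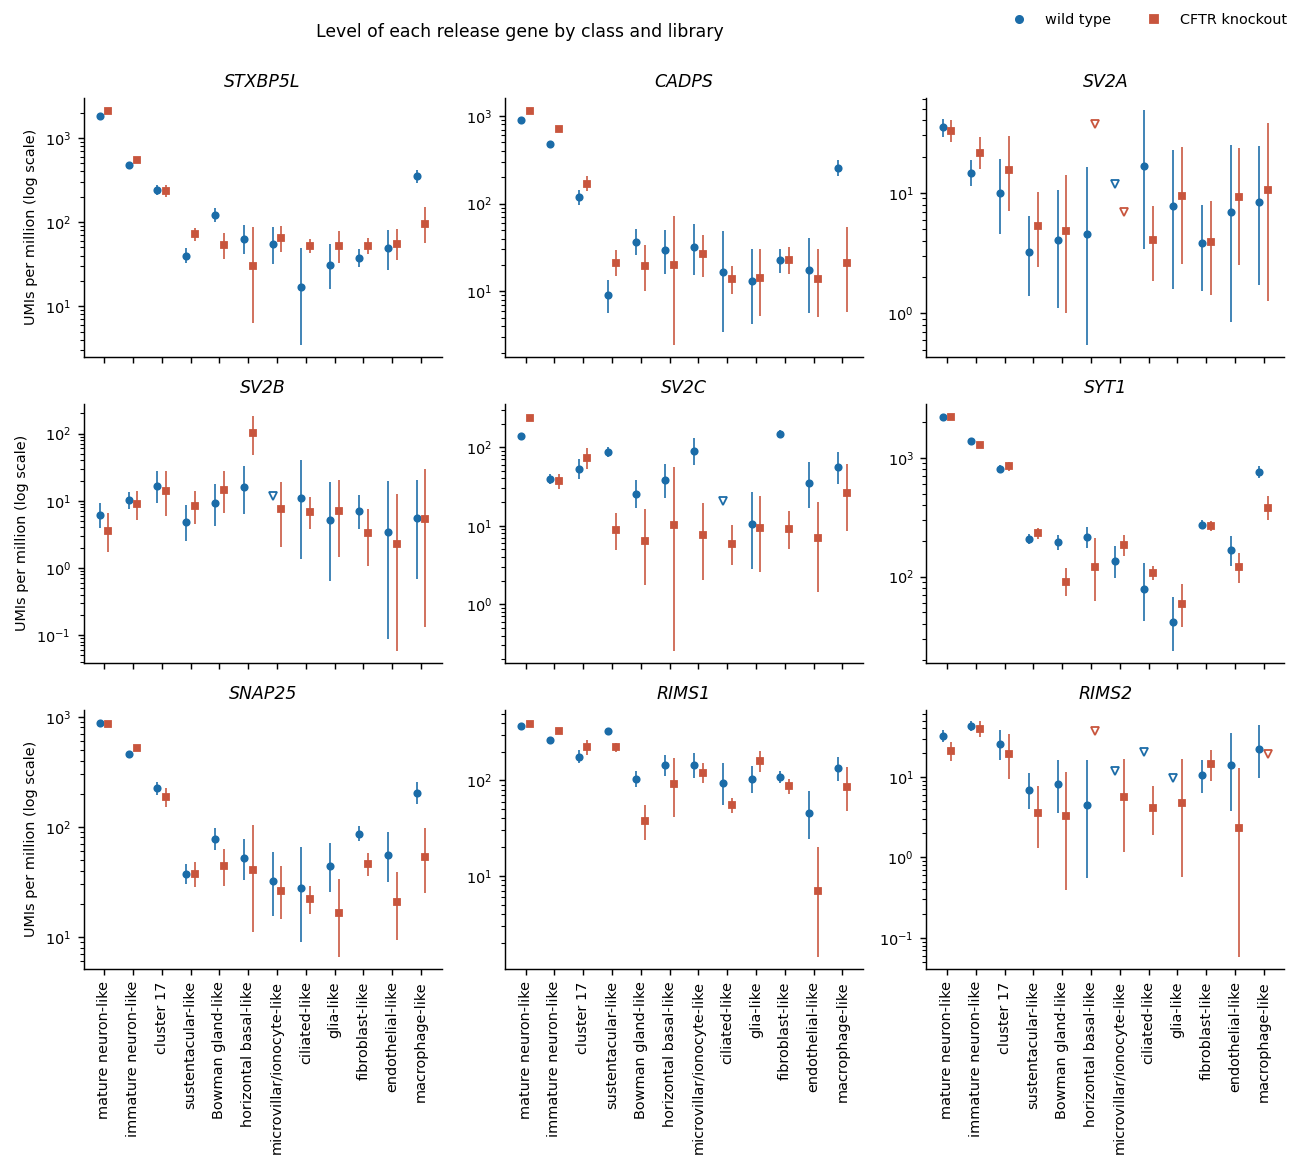
Level of each gene in CPM (log axis) by class, with wild type as circles and CFTR knockout as squares. Bars are exact Poisson 95% intervals for counting error, and an open triangle marks the upper limit where no UMI was counted. STXBP5L, CADPS, SYT1 and SNAP25 stand highest in neuron-like classes. RIMS1 is nearly as high in sustentacular-like as in mature neuron-like nuclei in the wild type (333 and 367 CPM), but not in the knockout library (222 and 391 CPM). SV2C differs between the libraries in sustentacular- and fibroblast-like nuclei.

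Among the regulators of SNARE assembly and priming, STXBP5L (tomosyn-2) blocks the assembly of SNARE complexes by competing for the same partners. Its level was 1846 CPM in wild type and 2117 CPM in knockout mature neuron-like nuclei, and immature neuron-like nuclei had 479 and 547 CPM. The 2 classes do not overlap in their counting intervals, and the log2 ratio of mature over immature was 1.95 in both libraries (1.88 to 2.02 and 1.86 to 2.05). In cluster 17 the level was 239 and 235 CPM. Cluster 0, the immature cluster with the growth cone gene GAP43, stood at 543 and 563 CPM, so the larger part of the difference lay between cluster 0 and the mature clusters, with a log2 ratio of 1.77 and 1.91. STXBP5L was also among the genes that led both mature clusters, although it was not used to form them.

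CADPS (CAPS1) binds SNAREs and membrane lipids and primes vesicles, in particular dense-core vesicles. Its level was 898 and 1139 CPM in mature and 476 and 706 CPM in immature neuron-like nuclei of the wild type and the knockout library. The difference between these classes was smaller than 2-fold, at a log2 ratio of 0.91 (0.84 to 0.99) and 0.69 (0.60 to 0.78). CADPS also differed among the other clusters: cluster 17 had 118 and 170 CPM, cluster 3 had 267 and 327 CPM, and cluster 0 had 673 and 777 CPM. Immature neuron-like nuclei were above cluster 17 by 2.02 (1.73 to 2.31) and 2.06 (1.76 to 2.37) on the log2 scale, so that for CADPS the difference between cluster 17 and the immature class was the larger, and for STXBP5L that between the immature and the mature class.

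SNAP25, the plasma membrane SNARE that supplies a pair of helices to the complex, was at 876 and 860 CPM in mature and 461 and 520 CPM in immature neuron-like nuclei. Its mature over immature log2 ratio was 0.93 (0.85 to 1.01) and 0.73 (0.62 to 0.83). From cluster 17, at 225 and 185 CPM, to the immature class it was higher by 1.04 and 1.49. The 2 differences were thus similar in the wild type, and that between cluster 17 and the immature class was the larger in the knockout library.

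SYT1, the calcium sensor for fast release, was at 800 and 848 CPM in cluster 17. Immature neuron-like nuclei had 1372 and 1274 CPM, and mature neuron-like nuclei 2215 and 2186 CPM. The log2 ratio of mature over immature was 0.69 (0.64 to 0.74) and 0.78 (0.71 to 0.85). At equal depth a SYT1 UMI was found in 35.2% and 42.2% of cluster 17 nuclei, 69.0% and 62.8% of immature and 82.3% and 80.9% of mature neuron-like nuclei. The cluster 17 level of SYT1 was 36.1% and 38.8% of its own mature level, where that of STXBP5L was 13% and 11.1% and that of CADPS 13.1% and 14.9%.

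**Figure D2:**
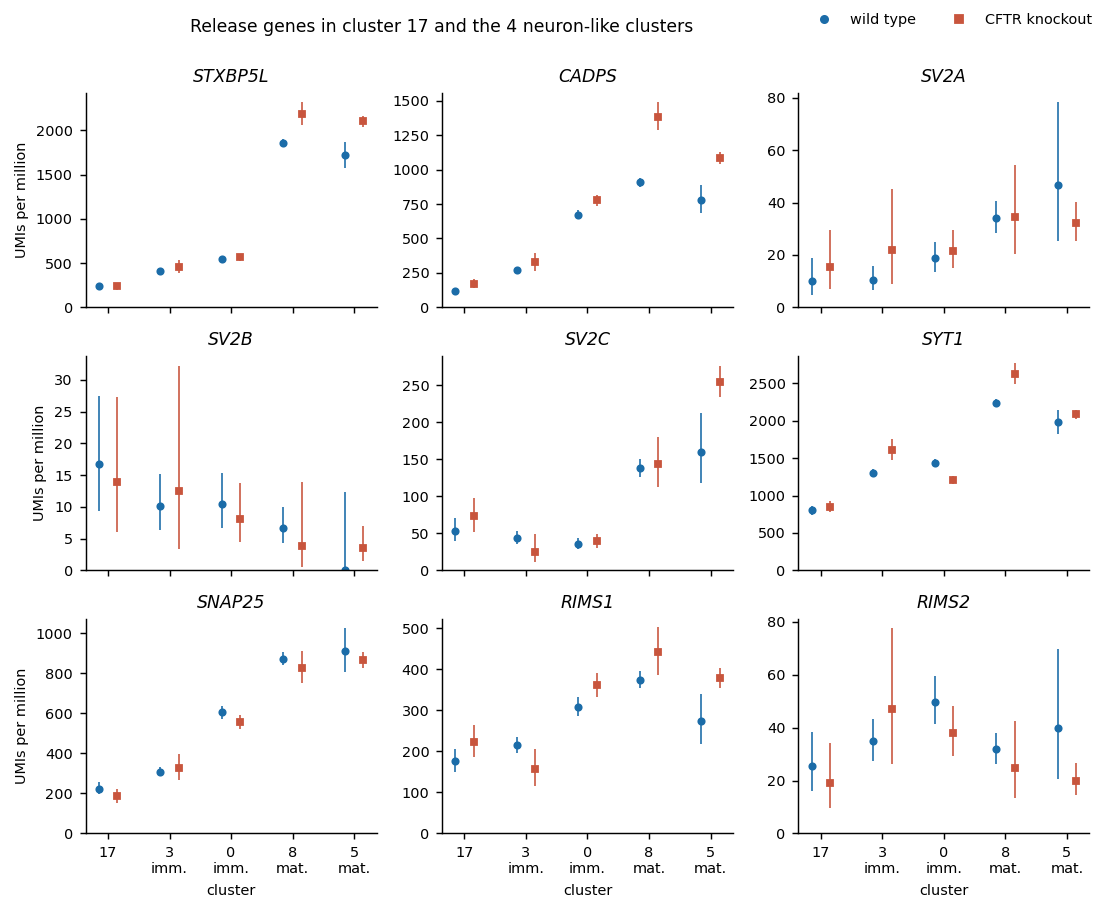
Level in CPM (linear axis from 0) in cluster 17, the immature neuron-like clusters 3 and 0, and the mature neuron-like clusters 8 and 5, with circles for wild type, squares for knockout and exact Poisson 95% intervals; imm. is immature and mat. mature. STXBP5L and SV2C are higher in cluster 8 than in cluster 0, CADPS and SNAP25 are lowest in cluster 17, and SV2B and RIMS2 are not highest in mature clusters.

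The SV2 proteins, transporter-like glycoproteins of the vesicle membrane that serve as receptors for botulinum neurotoxin, differed in pattern. SV2C was at 140 and 234 CPM in mature and 39.1 and 36.8 CPM in immature neuron-like nuclei, with a log2 ratio of 1.84 (1.59 to 2.09) in wild type nuclei and 2.67 (2.32 to 3.03) in knockout nuclei. Unlike CADPS and SNAP25 it was not lower in cluster 17, which had 53.4 and 72.7 CPM, than in immature neuron-like nuclei. SV2A, the target of the antiepileptic drug levetiracetam, was counted less often. It had 136 and 91 UMIs in mature and 69 and 44 in immature neuron-like nuclei, which is 34.9 and 32.5 against 14.7 and 21.6 CPM, and its log2 ratio was 1.25 (0.82 to 1.68) in the wild type but 0.59 (0.06 to 1.14) in the knockout library. The intervals of these 2 ratios overlap.

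SV2B was barely counted in neurons and not higher in mature ones. Mature neuron-like nuclei had 24 and 10 UMIs (6.17 and 3.58 CPM), immature neuron-like nuclei 48 and 18 (10.3 and 8.84 CPM) and cluster 17 had 15 and 8 (16.7 and 13.8 CPM). The mature over immature log2 ratio was -0.73 (-1.51 to 0.00) and -1.31 (-2.58 to -0.11). Its highest level among named classes was in horizontal basal-like nuclei, the reserve stem cells of the epithelium, at 15.8 and 101 CPM, but this rests on 7 and 10 UMIs in 108 and 39 nuclei, of which 4 and 5 were in a single nucleus.

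RIMS1 and RIMS2 encode RIM proteins, scaffolds of the active zone that tether vesicles and calcium channels. RIMS1 was at 367 and 391 CPM in mature and 264 and 330 CPM in immature neuron-like nuclei, with a log2 ratio of 0.48 (0.37 to 0.59) and 0.25 (0.11 to 0.39). RIMS2 went the other way, at 32.4 and 20.7 CPM in mature and 42.5 and 39.3 CPM in immature neuron-like nuclei, with a log2 ratio of -0.39 (-0.73 to -0.06) and -0.92 (-1.43 to -0.42). With nuclei thinned to 1000 UMIs the wild type ratio of RIMS2 was 0.17. Its highest level among named classes was in immature neuron-like nuclei in both libraries, whose counts were 199 and 80 UMIs.

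Counted over the 9 genes, 2 (STXBP5L and SV2C) were at least 2-fold higher in mature than in immature neuron-like nuclei in both libraries, against 3.44% of 11594 genes tested. None of the 9 was at least 2-fold lower in both, against 5.58%. The median log2 ratio of the 9 genes was 0.91 in the wild type and 0.69 in the knockout library, beside -0.10 and -0.01 over all genes with enough UMIs. In each library 7 of the 9 ratios were above 0. At 1.5-fold 6 were higher in both libraries and 1 (SV2B) lower, against 8.12% and 11.4% of all genes.

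**Figure D3:**
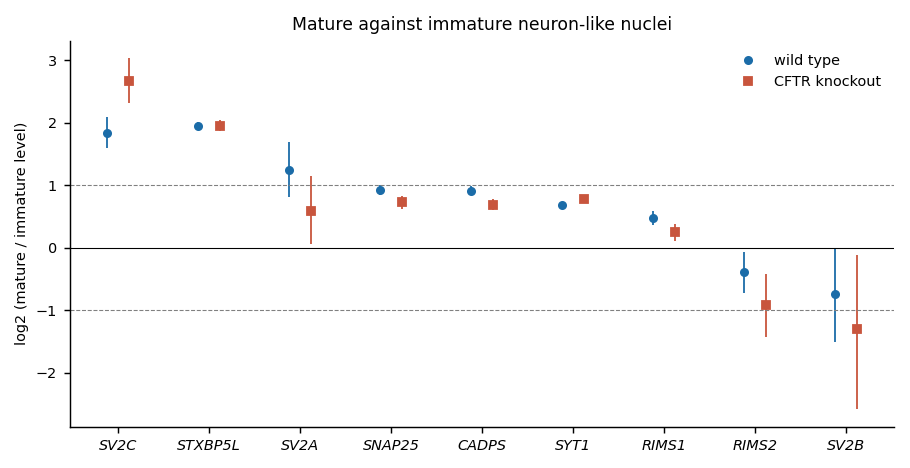
Log2 ratio of the level in mature over immature neuron-like nuclei for each gene, with circles for wild type and squares for knockout, and exact conditional binomial 95% intervals. Dashed lines mark 2-fold. SV2C and STXBP5L lie above 2-fold in both libraries, and RIMS2 and SV2B lie below 0.

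In sustentacular-like nuclei the shares of nuclei with a UMI were set beside those in classes that should lack a synapse, the macrophage-, endothelial- and fibroblast-like nuclei. At equal depth a SYT1 UMI was found in 16.3% and 16.9% of the wild type and knockout sustentacular-like nuclei, beside 17% and 17.3% of fibroblast-like, 20.5% and 14.1% of macrophage-like and 10.5% and 7.74% of endothelial-like nuclei. Without thinning the sustentacular-like shares were 33.1% and 32.9%. Median depths were 2677 and 2571 UMIs in sustentacular-like, 2069.5 and 1615 in fibroblast-like, 2360 and 1428.5 in macrophage-like and 2435.5 and 2048 in endothelial-like nuclei. The SYT1 share in sustentacular-like nuclei thus overlapped with those of fibroblast- and macrophage-like nuclei, but in the knockout library its interval (13.9% to 20.3%) lay above that of endothelial-like nuclei (4.18% to 12.9%), and in both libraries above those of glia-like nuclei, which held a SYT1 UMI in 5.59% (2.45% to 10.7%) and 4.17% (1.69% to 8.40%). No share beyond the intervals of macrophage- and endothelial-like nuclei was found for STXBP5L (3.99% and 7.57% in sustentacular-like nuclei beside 6.85% and 6.41% in macrophage-like and 3.95% and 5.95% in endothelial-like nuclei), for CADPS (1.10% and 2.16% beside 6.85% and 1.28%, and 1.32% and 2.38%) and for SNAP25 (4.96% and 5.59% beside 11.0% and 3.85%, and 3.95% and 4.17%), whose intervals overlap with those of these classes or, for CADPS beside the wild type macrophage-like nuclei, lie below them. Knockout glia-like nuclei had a SNAP25 UMI in 0.60% (0.02% to 3.27%). Without thinning a UMI of these 3 genes was found in 11.6% and 15.7%, 2.69% and 5.51%, and 10.6% and 9.29% of sustentacular-like nuclei.

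The macrophage-like levels differed between the libraries. Wild type macrophage-like nuclei had 349 CPM of STXBP5L, 257 of CADPS, 762 of SYT1 and 204 of SNAP25, and knockout macrophage-like nuclei had 94.8, 21.1, 379 and 52.7 CPM. The wild type STXBP5L UMIs lay in 16 of 81 nuclei, with 27 of the 125 in the highest nucleus. Those of CADPS lay in 13 of 81, with 22 of the 92 in the highest. The 13 neuron markers summed to 22.9% and 19.8% of their mature level in wild type and knockout macrophage-like nuclei. Across sustentacular-, gland-, fibroblast- and endothelial-like nuclei that sum lay between 12.3% and 20.2% of the mature level. In microvillar or ionocyte-like nuclei it was higher, at 58.2% in the wild type and 40.4% in the knockout library. The part of these markers in the levels of the release genes outside neurons was not tested.

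RIMS1 was higher than this in sustentacular-like nuclei. Wild type sustentacular-like nuclei had 333 CPM (311 to 357) and knockout ones 222 CPM (200 to 246), which is 90.7% and 56.8% of the mature neuron-like level, whereas STXBP5L was at 2.16% and 3.40%, CADPS at 1.00% and 1.87%, SNAP25 at 4.28% and 4.32%, SYT1 at 9.38% and 10.6%, SV2A at 9.32% and 16.3% and RIMS2 at 21.4% and 17.1% of theirs. SV2C was at 62.3% of its mature neuron-like level in the wild type and 3.79% in the knockout library, and SV2B, from 12 and 14 UMIs, at 79.2% and 231%. At equal depth a RIMS1 UMI was found in 24.9% (21.8% to 28.2%, n = 726 nuclei) and 15.7% (12.8% to 19.0%, n = 555) of sustentacular-like nuclei, beside 27.9% and 28.4% of mature neuron-like, 6.35% and 6.65% of fibroblast-like, 2.74% and 3.85% of macrophage-like and 2.63% and 0.60% of endothelial-like nuclei. Unthinned, these shares were 48.7% and 35.1% in sustentacular-like nuclei. Both sustentacular-like clusters carried it, cluster 1 with 331 and 226 CPM and cluster 2 with 345 and 217 CPM. Glia-like nuclei had 104 and 159 CPM, and at equal depth 9.09% (4.93% to 15.0%) and 14.9% (9.87% to 21.2%) of them held a RIMS1 UMI; the knockout share lies above the endothelial-like interval (0.02% to 3.27%), and in the wild type library the intervals overlap. RIMS2, its close relative, was at 6.92 and 3.54 CPM in sustentacular-like nuclei, from 17 and 6 UMIs.

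SV2C was the gene whose highest class differed between the libraries. In the wild type the margin was small, with 147 CPM in fibroblast-like beside 140 CPM in mature neuron-like nuclei, a level inside the fibroblast-like interval. In fibroblast-like nuclei, the stromal cells below the epithelium, 267 UMIs in the wild type stood against 14 in the knockout library, which is 147 CPM (129 to 165) against 9.12 CPM (4.98 to 15.3), a log2 ratio of -4.01 (-4.90 to -3.23). In sustentacular-like nuclei 214 UMIs stood against 15, or 87.1 CPM (75.9 to 99.6) against 8.85 CPM (4.95 to 14.6), a log2 ratio of -3.30 (-4.16 to -2.54). Microvillar or ionocyte-like nuclei had 28 against 4 UMIs (89.8 and 7.54 CPM) and Bowman gland-like nuclei 25 against 4 (25.7 and 6.46 CPM). In mature neuron-like nuclei the knockout library was the higher, with 654 against 544 UMIs and a log2 ratio of 0.74 (0.58 to 0.91), and in glia-like nuclei both libraries had 4 UMIs.

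The wild type SV2C UMIs outside neurons came from many nuclei. In fibroblast cluster 12 they lay in 71 of 513 nuclei, with 30 in the highest nucleus, against 9 of 658 knockout nuclei. In sustentacular cluster 1 they lay in 109 of 612 nuclei, with at most 8 in a nucleus, against 10 of 331. Fibroblast cluster 18 had 21 wild type UMIs and none in 161 knockout nuclei, so that up to 1.86% of such nuclei could carry a UMI, taking 3 counts of the total as the limit of a count of 0; the exact interval of its log2 ratio lay below -1.37. At equal depth an SV2C UMI was found in 7.22% and 0.46% of fibroblast-like and 7.71% and 0.90% of sustentacular-like nuclei, 0 of 73 wild type macrophage-like nuclei, which allows up to 4.11%, and 0 of 143 wild type glia-like nuclei, which allows up to 2.10% by the same limit. Without thinning the fibroblast-like shares were 10.6% and 1.10% and the sustentacular-like shares 15.7% and 1.89%. Of the 10391 genes with enough UMIs in both classes, 50 (0.481%) were at least 2-fold lower in the knockout library in both, and SV2C had rank 1 by the smaller of its 2 differences; this ranking was made after its values were seen.

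**Figure D4:**
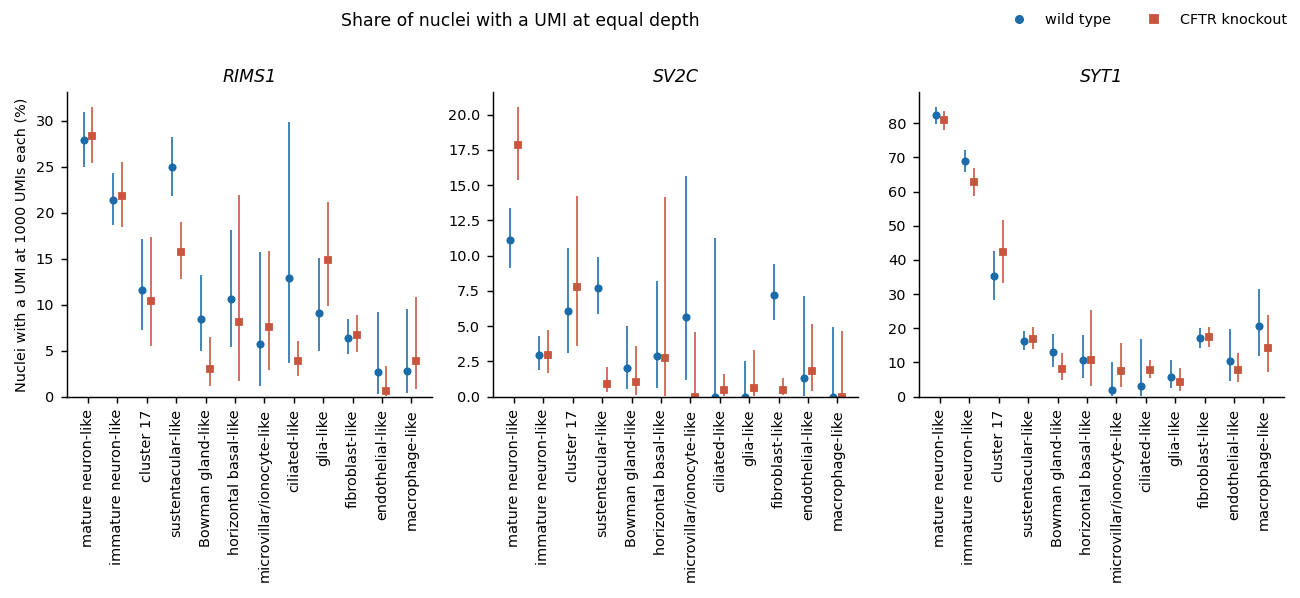
Percent of nuclei with a UMI of RIMS1, SV2C and SYT1 after thinning each nucleus to 1000 UMIs, by class, with circles for wild type, squares for knockout and exact Clopper-Pearson 95% intervals. RIMS1 is found in 24.9% and 15.7% of sustentacular-like nuclei, SV2C in 7.71% against 0.90%, and SYT1 in sustentacular-like nuclei at the share of fibroblast-like nuclei.

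Between the libraries, none of the 9 genes differed by 2-fold over the mature or the immature neuron-like class. Over mature neuron-like nuclei the count was 0 of 9, against 8.43% of 12059 genes tested, and over immature neuron-like nuclei 0 of 9, against 10.7% of 12650; at 1.5-fold 3 of 9 and 0 of 9 differed, against 21.6% and 24.6% of all genes. The median log2 ratio of knockout over wild type was -0.02 for the 9 genes and 0.07 for all genes in mature, and 0.17 and 0.02 in immature neuron-like nuclei. The counting intervals left 0 for several genes in mature neuron-like nuclei: STXBP5L was higher in the knockout library by 0.20 (0.15 to 0.25) and CADPS by 0.34 (0.27 to 0.41), and RIMS2 was lower, at -0.64 (-1.12 to -0.18). For SYT1 the ratio was -0.02 (-0.07 to 0.03), for SNAP25 -0.03 (-0.10 to 0.05) and for RIMS1 0.09 (-0.03 to 0.20).

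Inside the mature clusters the direction of STXBP5L and CADPS was the same, at 0.29 and 0.47 in cluster 5 and 0.24 and 0.61 in cluster 8. SV2C was higher in the knockout library in cluster 5, at 0.67 (0.24 to 1.13), while in cluster 8 the ratio was 0.06 (-0.31 to 0.41). RIMS2 reached -1.02 (-1.96 to 0.04) in cluster 5, from 12 and 45 UMIs, and -0.35 (-1.30 to 0.48) in cluster 8. RIMS1 was higher in the knockout library in both clusters, at 0.47 (0.14 to 0.81) and 0.24 (0.03 to 0.44), although its ratio over the class included 0. SYT1 was higher in cluster 8, at 0.23 (0.15 to 0.31), and at 0.08 (-0.05 to 0.20) in cluster 5, so its value near 0 over the class is not found in cluster 8. SNAP25 was at -0.08 in both.

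In immature neuron-like nuclei CADPS was the gene farthest from 0, at 0.57 (0.47 to 0.66), but only 0.21 (0.10 to 0.31) in cluster 0 and 0.29 (-0.03 to 0.59) in cluster 3. Cluster 0, which had more CADPS than cluster 3, made up 593 of 866 wild type and 478 of 561 knockout nuclei of the class. SYT1 was at -0.11 (-0.17 to -0.04) over the class, at -0.25 (-0.33 to -0.17) in cluster 0 and at 0.31 (0.17 to 0.44) in cluster 3. RIMS1 was at 0.32 (0.18 to 0.46) over the class, at 0.22 (0.07 to 0.38) in cluster 0 and at -0.45 (-0.90 to -0.03) in cluster 3. SNAP25 was at 0.17 (0.07 to 0.28) over the class, but at -0.12 (-0.24 to -0.002) in cluster 0 and 0.08 (-0.23 to 0.38) in cluster 3. The directions of SYT1 and RIMS1 thus differed between the 2 immature clusters. Past 2-fold were RIMS2 in cluster 5, against 14% of all genes there, and SV2A in cluster 3, at 1.06 (-0.40 to 2.31) from 7 knockout and 24 wild type UMIs, against 18.6%; both intervals include 0. In clusters 8 and 0 none of the 9 passed it, against 11.2% and 6.78%.

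Over all nuclei the ratios of the 9 genes ran from -0.11 for CADPS to -0.81 for RIMS2, with a median of -0.36 beside 0.10 for all genes. The intervals of SV2A and SV2B included 0, and the CADPS ratio was 0.06 with nuclei thinned to 1000 UMIs and the SV2A ratio 0.02 with each nucleus weighted equally. None passed 2-fold, against 9.88% of 16106 genes, and 1 (RIMS2) passed 1.5-fold, against 24.4%. Mature neuron-like nuclei were 20.3% of wild type and 15.6% of knockout nuclei (919 and 898 nuclei), and immature ones 19.1% and 9.74% (866 and 561). These shares also depend on the other nuclei captured. Unnamed cluster 6 held 28 wild type and 939 knockout nuclei, the ciliated-like class 31 and 446, and cluster 21 held 47 and 431. A sum over all nuclei thus cannot separate a smaller share of neurons from less RNA per neuron. Within the mature class 4 of the 9 ratios were above 0.

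**Figure D5:**
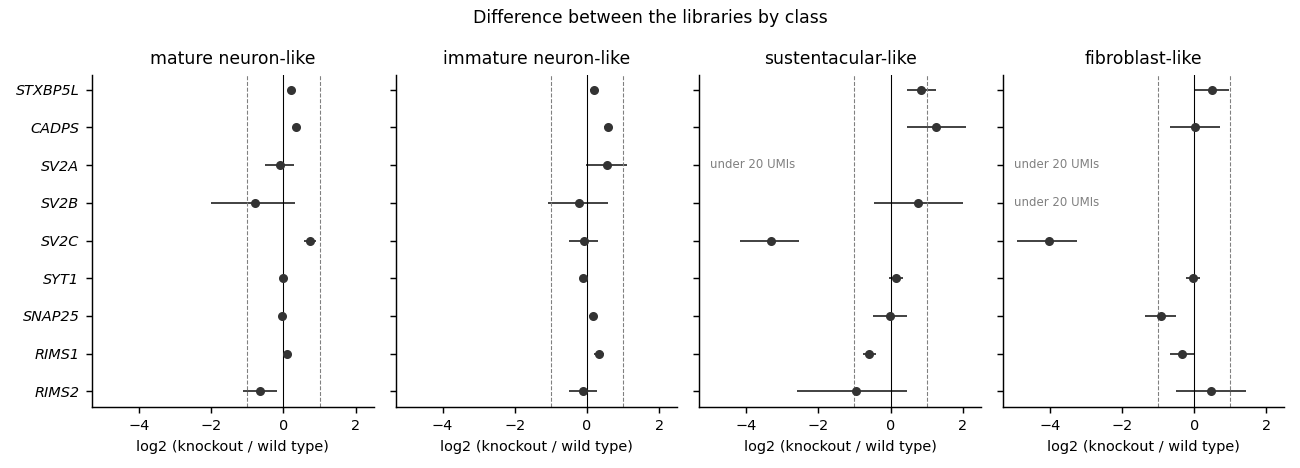
Log2 ratio of the knockout over the wild type level for each gene in 4 classes, with exact conditional binomial 95% intervals; dashed lines mark 2-fold and genes with under 20 UMIs are named without a value. In neuron-like classes all points lie within 2-fold, and SV2C lies at -3.30 and -4.01 in sustentacular- and fibroblast-like nuclei.

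Outside neurons, 2 of 8 genes with enough UMIs passed 2-fold in sustentacular-like nuclei (SV2C lower, and CADPS higher at 1.25, 0.44 to 2.08, from 22 and 36 UMIs), against 8.64% of 11453 genes tested. With clusters formed at resolution 0.5 the CADPS ratio was -0.63, and with nuclei thinned to 1000 UMIs it was 0.97. In fibroblast-like nuclei 1 of 7 passed (SV2C), against 11.0% of 11304. RIMS1 was lower in the knockout sustentacular-like nuclei by 0.59 (log2 ratio -0.59, -0.77 to -0.41), in both of their clusters (-0.55 and -0.67). Among fibroblasts RIMS1 moved in opposite directions, with 151 and 74.8 CPM in cluster 12 and 25.9 and 134 CPM in cluster 18, from 16 and 41 UMIs in the latter; the log2 ratios were -1.01 (-1.39 to -0.64) and 2.37 (1.51 to 3.30).

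In Bowman gland-like nuclei, the secretory glands of the olfactory mucosa, 4 of 6 genes passed 2-fold, all lower in the knockout library, against 11.2% of 9260. STXBP5L was at 122 and 53.3 CPM, SYT1 at 194 and 90.5, RIMS1 at 104 and 37.2 and SV2C at 25.7 and 6.46 CPM. For STXBP5L and SYT1 the difference lay in cluster 14, where 84 and 9, and 133 and 14 UMIs were counted, and not in cluster 7, where 35 and 24, and 56 and 42 were. In the wild type class the highest nucleus held 28 of the 119 STXBP5L UMIs, and the highest for SYT1 held 52 of 189. Without the nucleus with the most UMIs in each library the SYT1 log2 ratio was -0.74 instead of -1.10, and that of STXBP5L was -1.01 instead of -1.20. With each nucleus weighted equally these ratios were -0.19 and -0.10, and with no doublet removed those of SYT1 and SV2C were -0.84 and -0.97. The summed neuron markers were at 12.4% of the mature level in wild type and 15.6% in knockout gland-like nuclei, and their part in these differences was not tested.

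The wider release machinery was taken from a list of 106 genes in 8 roles, of which 103 were measured and 74 had at least 20 UMIs over mature and immature neuron-like nuclei together in each library. At least 2-fold higher in mature neuron-like nuclei of both libraries were 6, at least 2-fold lower 5, and 63 were neither, beside 3.44% higher and 5.58% lower among all genes. The median log2 ratio of the list was 0.15 and -0.08. Of the 74 genes, 25 had their highest level among the named classes in a neuron-like class in both libraries. For the 9 genes this count was 7, and over all genes with at least 20 UMIs in each library the share was 8.01%. The 6 higher were CPLX1, SNPH, SYN2, SLC17A8, DNM1 and SH3GL3, and the lower genes included ERC2, SYT16, CACNA1C and CACNA1E.

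By role, 0 of 9 SNARE genes other than SNAP25 were at least 2-fold higher, and VAMP2, the vesicle SNARE, had the highest mean ratio (0.63 in the wild type, 0.65 in the knockout library). Of the genes of SNARE assembly and disassembly 2 of 11 were higher and none lower. CPLX1, a complexin that clamps the SNARE complex, had 21.3 and 7.87 CPM in mature and 5.56 and 1.96 CPM in immature neuron-like nuclei, with ratios of 1.94 and 2.0, and STXBP6 (amisyn) the lowest ratios at -2.58 and -0.90. Priming factors gave 0 of 5 in either direction: UNC13A (Munc13-1) was at 0.51 and 0.35, and CADPS2, the relative of CADPS, at -0.94 in both libraries, from 202 and 141 CPM in mature and 388 and 271 CPM in immature neuron-like nuclei. CADPS and CADPS2 thus had opposite ratios.

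Among active zone scaffolds 0 of 10 were higher and 1 lower, with PPFIA2 (liprin-alpha-2) at 0.32 and 0.22 and ERC2, a binding partner of RIM proteins, at -1.29 and -1.91. Other genes of the SYT1 family gave 0 higher and 1 lower of 6, with SYT14 at 0.79 and 0.90 and SYT16 at -3.34 and -1.68. Genes of the vesicle membrane and its filling gave 2 higher and 0 lower of 15. SLC17A8, a vesicular glutamate transporter, stood at 1.57 and 1.74, from 37 and 23 UMIs in mature and 15 and 5 in immature neuron-like nuclei. SYNPR (synaptoporin) stood at -1.58 and -0.54. SLC17A6, another vesicular glutamate transporter, had 2019 and 1338 UMIs in mature neuron-like nuclei and ratios of 1.01 and 0.80. Presynaptic calcium channels gave 0 higher and 2 lower of 7, with CACNA1D at 0.75 and 0.64 and CACNA1C at -1.84 and -1.76. Of the genes of vesicle recycling 2 of 11 were higher, DNM1, the dynamin that pinches off vesicles, with ratios of 1.80 and 1.5, and SH3GL3; BIN1 had the lowest mean ratio, with -0.70 and -1.20.

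Between the libraries 5 of 77 genes of the wider list passed 2-fold in mature neuron-like nuclei, beside 8.43% of all genes. CPLX1 (-1.44), SYNGR2 (-1.11) and CACNA2D3 (-1.07) were lower and SVOP (1.04), a relative of the SV2 proteins, and RAB3D (1.38) were higher in the knockout library. SVOP had 229 and 339 UMIs there, and each of the other 4 fewer than 100 in either library. For these genes no ratio was computed within clusters 5 and 8, so a difference between the libraries cannot be told apart from one between the clusters.

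The genes most like each member in pattern were sought over 12 points, 6 named classes that hold 100 nuclei or more in each of the libraries; the points share libraries and depth, so the correlations are descriptions. STXBP5L was most like EML6, OSCP1 and MAP3K19 (Pearson r 0.992 each), CADPS like CCDC175, ZBBX and CLSTN2 (0.995 to 0.996), SNAP25 like GNB1, IGSF10 and GPR171 (0.987 to 0.990), SYT1 like DNAJC6, MBNL1 and PBX3 (0.975 to 0.983), SV2A like C7orf57, TEKT3 and PKIA (0.978 to 0.979) and RIMS2 like B3GNT2, UNCX and SKAP2 (0.962 to 0.984). The ciliated-like class, with 31 wild type nuclei, was not among the 6 classes. ZBBX was a marker used to name it, and CADPS was at 16.8 and 13.7 CPM there, from 3 wild type and 30 knockout UMIs. A likeness over the 6 classes thus need not hold in that class. The best matches of RIMS1, SV2B and SV2C were weaker than those of the other members. RIMS1 was most like LRRC74B, SRSF12 and ASPRV1 (0.897 to 0.912), SV2B like ETAA1, GGACT and AKR1D1 (0.845 to 0.872) and SV2C like DYNC2LI1, MTX2 and TTYH3 (0.820 to 0.823).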

How the data were processed

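The authors deposited a table of raw UMI counts for each library, with genes in rows and nuclei in columns. Cell Ranger, Seurat 4.0 and R 4.0.2 are named in the submitters' processing notes. Aligner and genome build: not given in the sources used here. Coordinates are therefore left out. A table was tied to its sample by the library name that ends the sample's title. The tables held 4715 wild type and 6054 knockout barcodes with 18731495 and 16623086 UMIs.

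Nuclei with fewer than 200 genes were removed (1), as were the 178 and 293 with the highest Scrublet scores, at an expected rate of 0.8% per 1000 nuclei; Scrublet's own threshold called 1 nucleus per library and had not worked. After scaling each nucleus to 10000 counts and a log transform, 2000 variable genes, without the 9 genes and the wider list, gave 30 principal components, 15 neighbours and Leiden clusters at resolution 1, in Python 3.11.15 with scanpy 1.11.5 and python-igraph 0.11.9. Names came from markers of 22 cell types: at least 3 markers with 1 log2 unit over the median of the other clusters and 5% of nuclei, more than for any other type, a median depth of at least 0.333 of the library's, and a check of the top 10 genes. The naming score was settled with the clusters in view, and clusters 4, 6, 17 and 21 carry no name.

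UMIs were summed per class and library and given as CPM with exact Poisson 95% intervals, shares with Clopper-Pearson and ratios with exact conditional binomial intervals; these cover counting error only, since there is 1 library per genotype. A ratio needed 20 UMIs over both sums, a call 2-fold, and a 0 was set to 3 counts. Levels are not compared between genes. The ratio computation was tested on simulated data. Named genes are the 9, per role the genes with the highest and lowest mean ratio, and per member the 3 genes (at least 200 UMIs) with the highest Pearson r of log2(CPM + 20). SLC17A6 was named in addition, after its values were seen. The members, lists and rules were chosen with earlier results of these data known. Alternatives covered doublets, resolution, gene minimum, clustering genes, separate clustering, thinning, equal weights, TMM (edgeR) and median-of-ratios factors, the UMI minimum, mitochondrial totals and 1.5-fold. The values of 1 gene of the wider list are not reported here.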

Additional observations from a re-analysis of the deposited data

Results flagged for a closer look

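For 5 of the 9 genes the libraries differed by 2-fold or more in at least 1 class and, by the counting intervals, in the opposite direction in another class, as did 16% of the 13043 genes with enough UMIs in at least 2 classes. The difference between classes was not tested, since there is 1 library per genotype. SV2C had a log2 ratio of knockout over wild type of 0.74 in mature neuron-like and -4.01 in fibroblast-like nuclei. STXBP5L was at 1.64 in respiratory ciliated-like nuclei, from 3 wild type and 115 knockout UMIs, and at -1.88 in macrophage-like nuclei. CADPS was at 1.25 in sustentacular-like and -3.61 in macrophage-like nuclei, the latter from 92 and 4 UMIs. These 92 wild type UMIs lay in 13 of 81 nuclei, with 22 in the highest nucleus. For STXBP5L, 125 wild type UMIs lay in 16 of the 81 macrophage-like nuclei, with 27 in the highest. At equal depth the STXBP5L shares were 6.85% of wild type and 6.41% of knockout macrophage-like nuclei, and the CADPS shares 6.85% and 1.28%. SNAP25 was at 0.17 in immature neuron-like and -1.95 in macrophage-like nuclei; the first of these values was -0.12 in cluster 0 and 0.08 in cluster 3, and ranged from -0.07 to 0.17 over the alternatives. RIMS1 was at 0.62 in glia-like and -1.48 in Bowman gland-like nuclei. The alternatives for single genes did not cover macrophage-, glia- and ciliated-like nuclei, so the values there were not checked against the processing.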

How the results depend on the processing

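Leaving out a replicate was not possible with 1 library per genotype, and no paired analysis was possible because the groups share fewer than 2 replicate numbers. Of the 6 counts over the 9 genes, those under the 12 alternatives other than the fold stayed within 1.5 times the value given, with the count of genes highest in neuron-like classes at 7 or 8. At 1.5-fold 1 gene differed between the libraries over all nuclei (24.4% of all genes), 3 in mature (21.6%) and 0 in immature neuron-like nuclei (24.6%), while 6 were higher (8.12%) and 1 lower (11.4%) in mature than in immature neuron-like nuclei of both libraries. In alternatives added after the data were seen, cluster 5 alone gave 1 gene past 2-fold between the libraries (RIMS2, against 14% of all genes) and cluster 3 alone gave 1 (SV2A, against 18.6%). Of 805 alternative values for single genes 696 stayed within the counting interval, 108 left it and 1 reversed a call: the CADPS ratio in sustentacular-like nuclei was -0.63 at resolution 0.5, and the cause was not tested. The SV2C ratio ranged from -4.49 to -3.61 in fibroblast-like and from -3.89 to -3.06 in sustentacular-like nuclei. In Bowman gland-like nuclei the SV2C ratio was -0.97 with no doublet removed. SV2A, SV2B and RIMS2 had few UMIs, and their ratios are limited by counting.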
